A study of Mus musculus with 2 samples.

Results

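Steroid hormone synthesis begins when cholesterol reaches the inner membrane of mitochondria, where the side-chain cleavage enzyme CYP11A1 acts on it. STAR, the steroidogenic acute regulatory protein, delivers cholesterol across the mitochondrial membranes through its lipid-binding START domain. Related START proteins carry sterols elsewhere in the cell, and the outer membrane proteins TSPO and VDAC1, the TSPO ligand DBI, the adaptor ACBD3 and the inner membrane ATPase ATAD3A have been placed around the same step. The part of TSPO in steroid synthesis remains debated.

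The levels and transcripts of 10 such genes are described here in the mouse adrenal gland. The genes were listed by name: Star, Stard3, Stard3nl, Stard5, Stard6, Tspo, Dbi, Acbd3, Vdac1 and Atad3a. All 10 were found among the 55536 annotated genes of the deposited tables, with 56 of the 141862 annotated transcripts. The RNA is total adrenal RNA of 2 female B6CASTF1/J adults (mice that are hybrids of the B6 and Cast backgrounds), aged 8 to 10 months. Each library was made from 300 ng of RNA with ERCC spike-ins, and the labels name no treatment or transgene. Both belong to 1 group, so no groups were compared and no p-value is given. The labels number the mice 1 (replicate 1) and 3 (replicate 2) under a single donor code, and the spread below is that of these 2 libraries, which may be partly technical. The whole gland was used, so fewer cells of a type and less RNA per cell cannot be told apart.

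Depth was 40453707 expected counts in replicate 1, and in replicate 2 it was 34319787. All 5 adrenal cortex markers and all 5 chromaffin cell markers were present, with summed levels of 17062 and 18631 TPM and of 1547 and 1454 TPM in replicates 1 and 2. TPM (transcripts per 1e6 of all transcripts in a library) is a level per length of transcript, so it allows genes to be set beside each other. The kidney markers Umod, Slc12a1 and Slc34a1 had 0 counts in either animal; 3 counts, the most that a count of 0 allows, would be 0.0742 and 0.0874 CPM (counts per 1e6, counting error only). Of 4 ovary markers, Amh alone had any level in the gene table, at 0.0700 and 0.210 TPM. The 5 adipocyte markers summed to 944 TPM in replicate 1 and 472 TPM in replicate 2.

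The sequences that tell transcripts apart come first, because the levels of Star, Tspo and Dbi rest on them. The annotation holds 2 Star transcripts. Star-201 (chromosome 8, 25808474 to 25815982, plus strand, mm10) has 7 exons, 4046 bases and a complete reading frame of 284 codons. Star-202 (chromosome 8, 25806555 to 25811221) is an incomplete model whose 3′ end was not found: it has 633 bases and 157 codons and stops inside the coding sequence. It adds 67 bases upstream, 39 of them in an exon of its own, and its other 566 bases are the first 566 bases of Star-201. Tspo-202 is likewise open at its 3′ end, with 551 bases, of which 337 lie in Tspo-201. In the 2 coding stretches below, lower case marks the last 60 bases shared by both transcripts, and capitals mark the first 60 bases that follow in the complete transcript alone. The Star stretch spans chromosome 8, 25811053 to 25811281, and the Tspo stretch chromosome 15, 83572266 to 83573816, both on the plus strand and without the introns.
Star-201: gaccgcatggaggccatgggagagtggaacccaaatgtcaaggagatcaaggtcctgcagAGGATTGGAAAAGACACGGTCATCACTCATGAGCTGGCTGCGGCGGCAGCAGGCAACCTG
Tspo-201: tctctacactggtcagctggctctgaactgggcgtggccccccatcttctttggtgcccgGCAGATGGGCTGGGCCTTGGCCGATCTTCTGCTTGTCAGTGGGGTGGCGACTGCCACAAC

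Dbi transcripts differ at the other end, in where the coding sequence begins. Dbi-201 (chromosome 1, 120113280 to 120121078, minus strand) starts its 87 codons in its first exon. Dbi-207 starts in another first exon and has 135 codons. Dbi-202 has neither of these exons: it begins in a longer form of the next exon, and its annotated start codon gives 63 codons. Capitals mark the coding bases of the own first exon in Dbi-201 and Dbi-207 (for Dbi-207 the last 60 of them) and the annotated start codon in Dbi-202. Lower case marks bases of the exon that all 3 share.
Dbi-201: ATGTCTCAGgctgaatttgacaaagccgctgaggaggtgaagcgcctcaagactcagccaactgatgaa
Dbi-207: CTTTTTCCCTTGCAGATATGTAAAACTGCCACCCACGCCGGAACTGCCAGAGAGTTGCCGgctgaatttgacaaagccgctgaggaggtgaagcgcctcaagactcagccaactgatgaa
Dbi-202: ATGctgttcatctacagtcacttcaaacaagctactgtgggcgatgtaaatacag

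**Figure D1:**
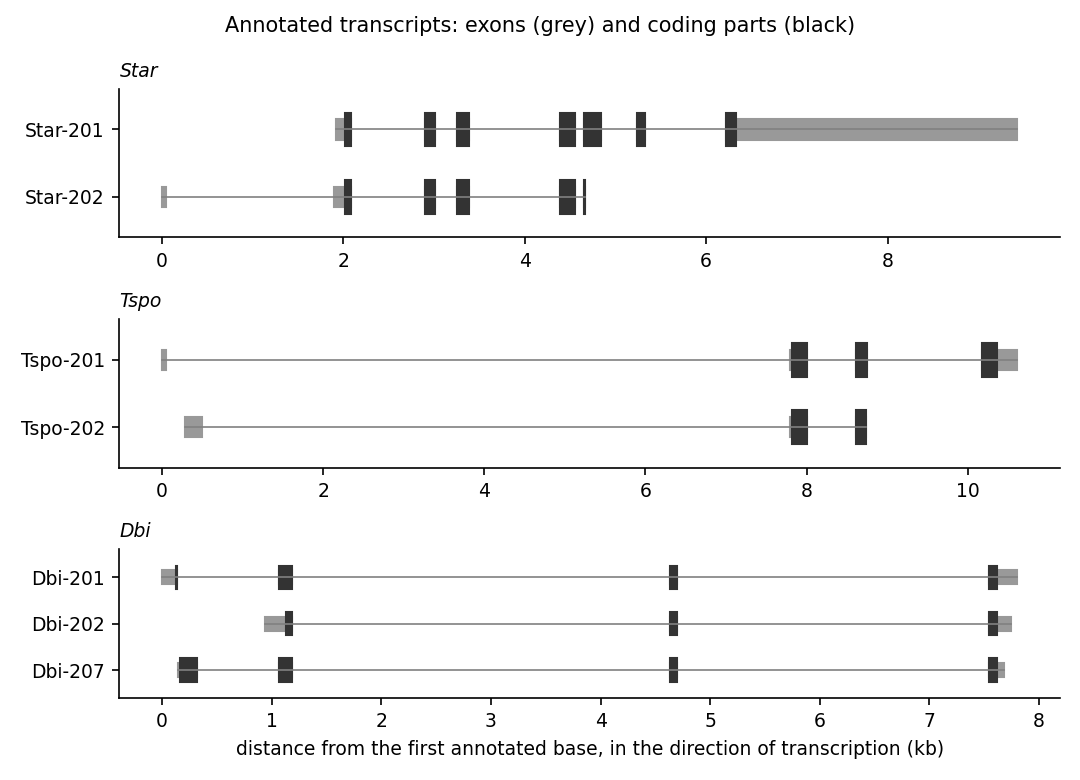
Exon maps of the Star, Tspo and Dbi transcripts named in the text, with distance from the first annotated base of each gene in kilobases on the x axis, exons in grey and coding parts in black. Star-202 and Tspo-202 stop inside the coding sequence, and the 3 Dbi transcripts differ in their first exon.

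Star stood far above the other 9 genes. It had 6319 TPM in replicate 1 and 5650 TPM in replicate 2, a mean of 5984 ± 473 TPM (SD, n = 2), and stood at 13544 and 11976 CPM (Wilson 95% intervals 13509 to 13580 and 11940 to 12013, counting error only). Among nuclear protein-coding genes it ranked number 2 in replicate 1 and number 3 in replicate 2. Star held 90.1% and 89.5% of the TPM of the 10 genes together. Both animals were high, and no other member overlapped their range. The gene (ENSMUSG00000031574.8) lies on chromosome 8, 25806555 to 25815982, plus strand.

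The level of Star depends on how its reads were shared between the 2 transcripts. In the alignment-based table Star-201 had 3140 and 2761 TPM, and Star-202 had 3179 and 2889 TPM, so the incomplete model held 50.3% and 51.1% of the gene's TPM. By expected counts, which are not divided by length, Star-202 held 12.0% and 12.4%. The index-based table gave Star-202 55.5% and 56.0% of TPM. Star-202 therefore led by TPM in both tables and both animals, while Star-201 led by counts in both. With all of the gene's counts placed on Star-201, an alternative chosen after seeing the data, Star had 3579 and 3159 TPM, a mean of 3369. Hsd3b1 (6758 and 7490 TPM) and Cyp21a1 (6206 and 6271 TPM) lay above it on that reckoning, and in replicate 2 also Cyp11b1 (3727 TPM), so the ranks above depend on the share given to Star-202. Star still stood 14.6-fold above Dbi, the next of the 10 genes, against 24.5-fold in the gene table. The bounds deposited with each TPM describe estimation error within 1 library, and Star was the only tested member outside its own: 6174 to 6235 TPM in replicate 1 and 5498 to 5561 TPM in replicate 2 both lie below the deposited TPM. Among the 12645 genes that averaged at least 100 expected counts, 97.6% and 97.7% lay inside theirs. Its expected counts, 547911 and 411022, were whole numbers, as were those of 8 of the 10 members.

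The other START proteins of the set were expressed far below Star. The median over the 12645 genes that averaged at least 100 expected counts was 11.4 and 12.2 TPM. Stard3, which tethers late endosomes to the endoplasmic reticulum and moves cholesterol between them, (chromosome 11, 98358368 to 98381112) had 9.39 and 8.74 TPM (9.07 ± 0.460, SD, n = 2). Stard5, a cytosolic sterol-binding protein (chromosome 7, 83631959 to 83653127), had 7.27 and 7.24 TPM (7.25 ± 0.0212). Stard6, known from male germ cells (chromosome 18, 70472454 to 70501066), had 1.23 and 1.73 TPM (1.48 ± 0.354), from 53 and 59 expected counts. Stard3nl, a late endosome protein related to the membrane part of STARD3 but without a START domain (chromosome 13, 19357676 to 19395795), had 13.4 and 14.3 TPM (13.9 ± 0.601). Of these 4 genes Stard6 differed most between the animals for its level. Star exceeded Stard3 by 673-fold and 646-fold, and by 431-fold and 429-fold with counts on principal transcripts.

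Star also dominated the wider START family. Of 15 START genes, Star, Stard3, Stard5 and Stard6 among them, 14 reached 1 TPM in both animals, and Star held 96.9% and 96.5% of their summed TPM. With counts on the principal transcript of each gene the mean share was 94.4%. The 11 other family genes had a median of 12.1 and 11.6 TPM. The highest were Col4a3bp, the ceramide transfer protein CERT, at 39.0 and 46.6 TPM, Stard7, which carries phosphatidylcholine to mitochondria, at 37.4 and 44.1 TPM, and Dlc1 at 34.4 and 30.1 TPM. With counts on principal transcripts Col4a3bp had 62.9 and 74.4 TPM. Stard4, a soluble sterol carrier, had 11.9 and 11.6 TPM, above Stard3 in the gene table, but with counts on principal transcripts it had 8.24 and 7.38 TPM beside 8.31 and 7.37 for Stard3. Acot12 alone fell under 1 TPM, at 0.140 and 0.270.

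The outer membrane proteins Tspo and Vdac1 had nearly equal levels. Tspo, the translocator protein that binds cholesterol and porphyrins (chromosome 15, 83563592 to 83574203), had 177 and 185 TPM (181 ± 5.41, SD, n = 2). Vdac1, a pore for metabolites (chromosome 11, 52360860 to 52389397), had 173 and 183 TPM (178 ± 7.43). Their ranges overlapped, and Tspo over Vdac1 was 1.02 and 1.01. In the index-based table Tspo stood higher, at 213 and 222 TPM against 156 and 161 TPM for Vdac1, a ratio of 1.37 and 1.38 with ranges apart. That table placed 42.2% and 41.7% of Tspo on the short incomplete Tspo-202, while the alignment-based table placed 0.678% and 1.03% there. With counts on principal transcripts Tspo averaged 180 TPM and Vdac1 171 TPM. Tspo-202 has its own first exon of 214 bases, and the complete Tspo-201 led in both tables.

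The listed relatives and partners of Tspo and Vdac1 were lower than Vdac1. Vdac3 had 97.9 and 94.5 TPM and Vdac2 had 70.3 and 73.4 TPM, so Vdac1 exceeded Vdac3 by 1.76-fold and 1.94-fold and Vdac2 by 2.46-fold and 2.50-fold. The adenine nucleotide carrier Slc25a5 reached 144 and 142 TPM. Tspo2, the erythroid relative of Tspo, was at 0 and 0.0700 TPM. Of the 8 genes on this list, 7 reached 1 TPM in both animals.

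Dbi was the second most abundant of the 10 genes. It encodes the acyl-CoA-binding protein, which also acts as a ligand of TSPO, and had 268 and 221 TPM (245 ± 33.7, SD, n = 2). Replicate 1 was higher, and both values lay above those of Tspo. The tables disagreed on its transcripts. Dbi-201 held 81.6% and 75.8% of the gene's TPM in the alignment-based table and 16.8% and 20.1% in the index-based table. Dbi-202, with the shorter reading frame, held 4.99% and 14.3% in the first and 77.3% and 74.1% in the second. Dbi-203, a noncoding transcript, held 12.3% and 7.80% in the first and was listed at 0 in the second. The tables thus give opposite answers on which of the starts printed above led, while the gene level differed less, at 300 and 243 TPM in the index-based table. Dbi had expected counts of 4622.9 and 3243.47, and Dbi and Atad3a were the 2 members whose counts were not whole.

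Acbd3, a Golgi protein that binds TSPO and a regulatory subunit of protein kinase A (chromosome 1, 180726043 to 180754204), had 16.6 and 17.3 TPM (16.9 ± 0.488, SD, n = 2). Its complete transcript held 98.6% and 97.2% of the gene's TPM. Among the other genes with an acyl-CoA-binding domain, Acbd5 (38.4 and 44.3 TPM), Acbd4 (39.4 and 41.0 TPM) and Eci2 (35.3 and 37.9 TPM) were the highest, each above Acbd3 in the gene table. With counts on principal transcripts Acbd5 had 26.1 and 28.8 TPM and Acbd4 16.3 and 16.4 TPM, beside 16.6 and 17.3 for Acbd3. Of these 6 genes, 4 reached 1 TPM, and Acbd7 and Dbil5 did not.

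Atad3a, which sits in the inner membrane at contacts with the outer one (chromosome 4, 155740641 to 155761093, minus strand), had 25.5 and 26.4 TPM (25.9 ± 0.658, SD, n = 2). Its coding transcript Atad3a-201 held 59.3% and 58.5% of the TPM. The 4 transcripts annotated as retained introns held 33.0% and 39.8%, led by Atad3a-202 at 20.1% and 22.0%. In the index-based table the retained introns held 28.9% and 30.4%, and transcripts marked for nonsense-mediated decay 21.1% and 14.9%, against 7.73% and 1.74% in the alignment-based table. With all counts on Atad3a-201 the level was 18.5 TPM on average.

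**Figure D2:**
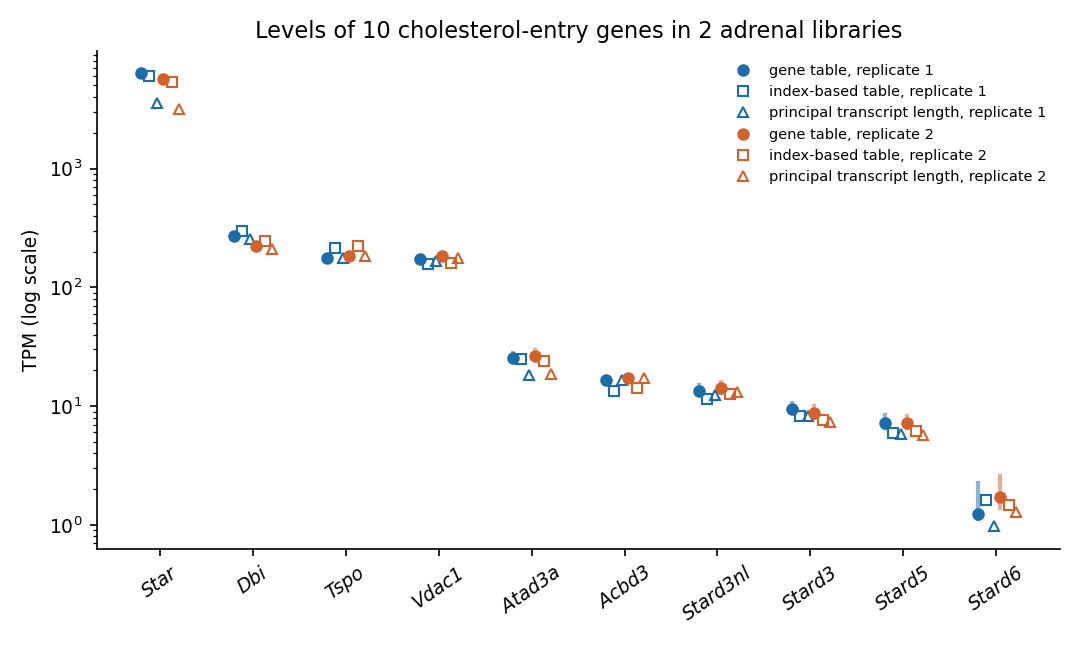
TPM on a log scale for each of the 10 genes, with filled circles for the gene table, vertical bars for its deposited bounds, open squares for the index-based table and open triangles for counts placed on the principal transcript; blue is replicate 1 and orange replicate 2. Star lies at 3159 TPM or more on each reckoning, Dbi, Tspo and Vdac1 lie between 156 and 300 TPM, and Stard6 is the lowest.

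The order of the levels was Star, Dbi, Tspo, Vdac1, Atad3a, Acbd3, Stard3nl, Stard3, Stard5 and Stard6. In 8 of the 9 neighbouring pairs the ranges of the 2 animals did not overlap, the exception being Tspo and Vdac1. The widest steps were the 24.5-fold from Star to Dbi, the 6.86-fold from Vdac1 to Atad3a and the 4.90-fold from Stard5 to Stard6. The narrowest step with ranges apart was the 1.22-fold from Acbd3 to Stard3nl. All 10 genes kept their positions in the index-based table and with counts on the principal transcript. With 2 values on each side an exact test cannot reach 0.05, so none was made.

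The log2 ratios of the 10 genes between the animals lay from -0.35 to 0.31. The ratio of replicate 2 to replicate 1 was taken on the log2 scale from counts scaled by TMM, a method that assumes most genes are equal, with 0.5 added. A gene was called different when the ratio reached 2-fold, the counts averaged at least 100 and the deposited TPM bounds of the animals stayed apart. Of the 9 members deep enough to be judged (Stard6 was not), 0 were called, where 148 of 12645 genes, or 1.17%, were called in all (0.514% higher and 0.656% lower in replicate 2). The members' median absolute log2 ratio was 0.04, beside 0.15 over all genes judged, and 7 of 9 lay within 0.25 of 0, where 70.6% of genes did. The share called and the share within 0.25 were thus near those of all genes. The medians were not matched for depth. Each ratio rests on 1 library a side and has no replicate check.

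Dbi and Star were the members furthest below replicate 1. Dbi had a log2 ratio of -0.35, or 1.28-fold lower in replicate 2, and Star of -0.26, or 1.19-fold lower. Stard3 had -0.25 from 637 and 480 expected counts, and its bounds overlapped. For Tspo, Vdac1, Acbd3 and Stard3nl the ratio was -0.02 and for Atad3a -0.04, values that turn positive (0.04 to 0.09) on total counts or the deposited TPM, where the median of all genes moves to 0.06 and 0.07. Stard6, with few counts, had 0.31.

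The deposited TPM bounds did not overlap for 3 of the 9 members, where they did not for 27.4% of genes. Star and Dbi were lower in replicate 2, a direction seen in 9.31% of genes, and Vdac1 was higher in TPM (166 to 174 against 175 to 184), a direction seen in 18.1%. The bounds do not cover differences between animals, and Vdac1 had no such rise on TMM-scaled counts.

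The lower Star of replicate 2 was not shared by the side-chain cleavage enzyme. Cyp11a1 had 2459 and 2729 TPM, a log2 ratio of 0.08, so Star over Cyp11a1 was 2.57 in replicate 1 and 2.07 in replicate 2. With counts on principal transcripts it was 1.46 and 1.15. Fdxr, the ferredoxin reductase that feeds CYP11A1 with electrons, had 524 and 643 TPM, and Fdx1, the ferredoxin, 595 and 492 TPM, with log2 ratios of 0.18 and -0.31. Hsd3b1, which acts on the product of CYP11A1, had 7281 and 8082 TPM. Of these 4 genes, 0 were called different, where 1.17% of all genes judged were.

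Adipocyte markers had the same direction as Star and Dbi, as did markers of some other cells. All 5 adipocyte markers were lower in replicate 2, with a median log2 ratio of -1.06. Of these 5, 4 were called (Adipoq, Cidea, Fabp4 and Ucp1), where 0.656% of all genes judged were called lower. All 3 erythroid, all 5 chromaffin and all 4 endothelial markers also lay below 0, with medians of -0.47, -0.15 and -0.11. Of all 12645 genes judged, 6677 lay below 0. In deposited TPM, Ddc (27.7 and 29.3) and Pecam1 (22.6 and 22.8) were higher in replicate 2. Pnmt was near level (247 and 247), and the rest of these markers were lower. The adrenal cortex markers had a median log2 ratio of 0.05, with 2 of 5 below 0. Macrophage markers, where TSPO is also found, had a median of -0.02, with 3 of 5 below 0. The part of these cells in the ratios of Star and Dbi was not tested. Acot11, a START family gene known from brown fat and named after its values were seen, had 22.5 and 10.6 TPM (9.75 and 5.14 TPM with counts on its principal transcript), over 2-fold apart in the gene table's TPM but just under 2-fold on TMM-scaled counts and so not called.

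**Figure D3:**
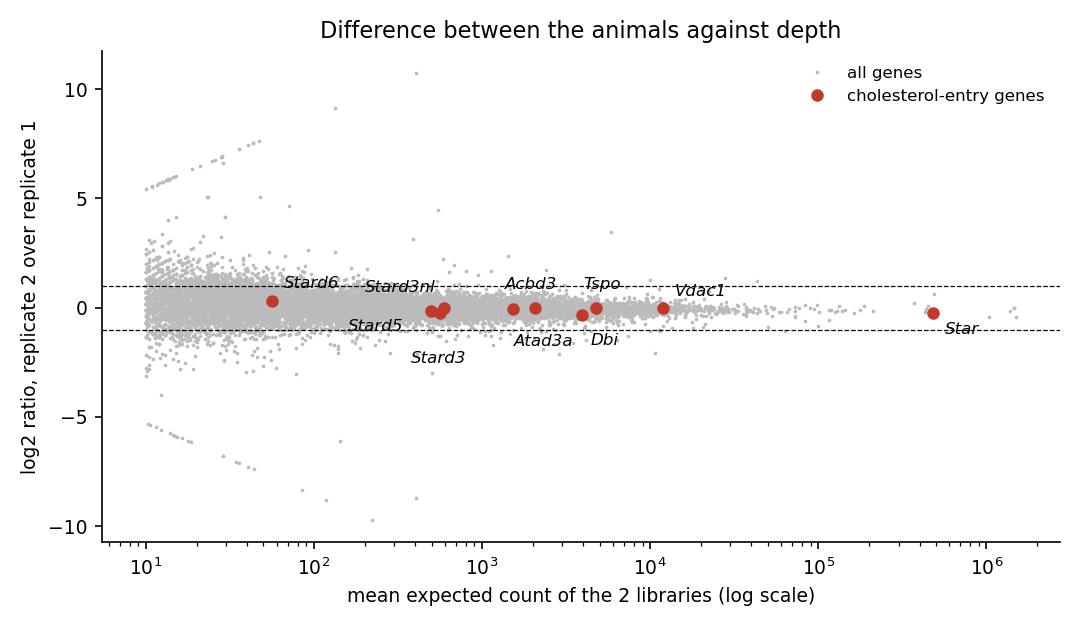
Log2 ratio of replicate 2 over replicate 1 on TMM-scaled counts against the mean expected count on a log scale, with all genes at 10 counts or more in grey, the 10 cholesterol-entry genes in red and dashed lines at a 2-fold ratio. All 10 red points lie between -0.35 and 0.31.

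The share of members with a steady leading transcript was that of genes at large. The same transcript led in both animals and both tables for 7 of the 10, where this held for 7689 of 10945 protein-coding genes with several transcripts and 1 TPM or more, or 70.3%. The exceptions were Dbi, Stard3nl and Stard6, and in Star the leader by TPM was not the leader by counts. In the alignment-based table the complete coding transcript led Vdac1 with 96.1% and 92.3%. In Stard5 it held 72.5% and 68.0%, and in Stard3 68.3% and 74.7%, the rest of Stard3 being in 6 noncoding transcripts.

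Stard3nl changed its leading transcript with the table. Stard3nl-201 held 66.6% and 62.3% in the alignment-based table and 5.10% and 0% in the index-based table, where Stard3nl-205 held 64.3% and 68.8%. These transcripts share 1266 bases and the same 235 codons, and Stard3nl-205 differs by a noncoding exon of 125 bases and a shorter first exon. The disagreement thus concerns a noncoding exon, where in Dbi it concerns where the coding sequence begins. Stard6 had different leading transcripts in the animals within each table, on 53 and 59 expected counts.

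Transcripts annotated as retained introns were measured for 6 of the genes. Their share had a median of 14.1% over these 6 in the alignment-based table, beside 8.11% over 7126 protein-coding genes with such transcripts, and of 10.7% beside 8.92% in the index-based table. Atad3a was highest, followed by Stard5 (27.1% and 31.3%) and Stard3nl (24.4% and 28.0%), while Acbd3, Dbi and Vdac1 each stayed under 3% in the alignment-based table. Incomplete coding models held 40% or more of the TPM in 1 of the 4 members that have them there (Star) and in 2 of 4 in the index-based table (Star and Tspo), where they did so in 7.04% and 10.6% of 5371 genes that have such models. The 40% limit was set after the values were seen.

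**Figure D4:**
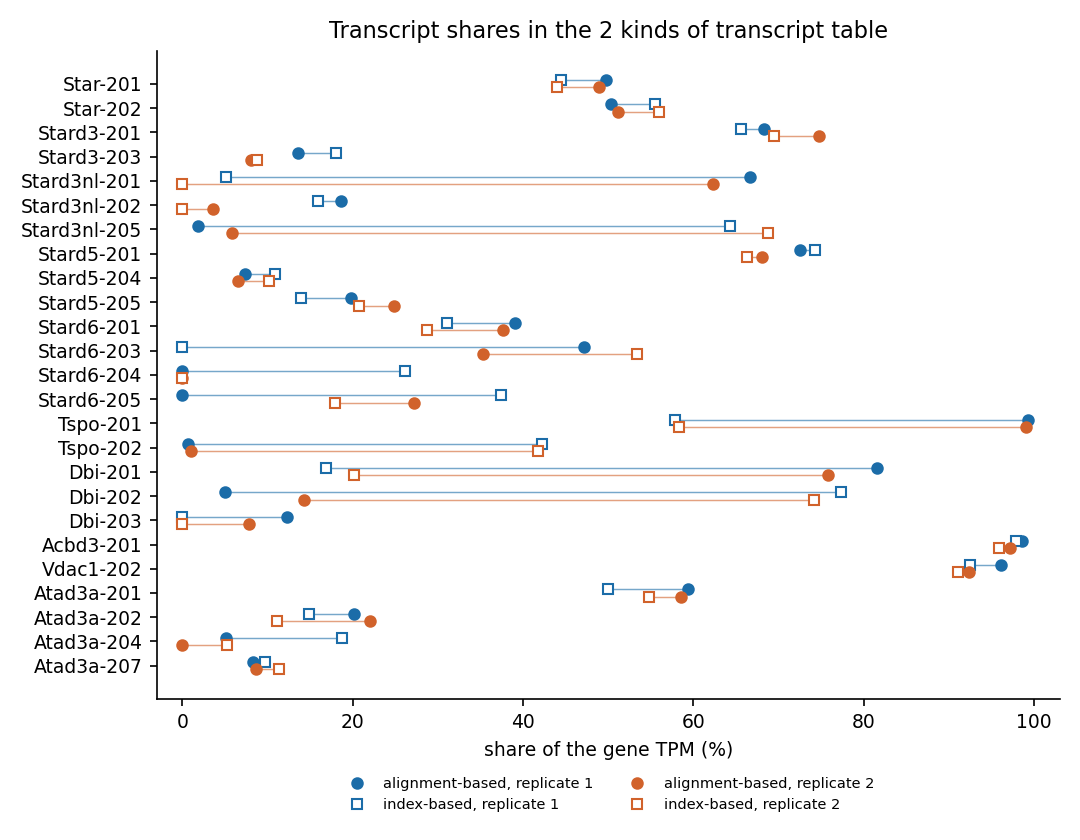
Share of the gene's TPM held by each transcript at 10% or more on average in either table, with filled circles for the alignment-based and open squares for the index-based table, blue for replicate 1 and orange for replicate 2. Long lines join the tables for Dbi-201, Dbi-202, Stard3nl-201, Stard3nl-205, Tspo-201 and Tspo-202 and, in replicate 1, for Stard6 transcripts, while Star-201 and Star-202 stay near equal shares.

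Some members share bases with neighbouring genes. Stard5 shares 1202 exon bases with Il16 on the opposite strand (2.18 and 1.83 TPM) and 101 with Gm45838 on its own strand. Tspo shares 53 bases with Mcat (13.2 and 14.4 TPM) and Stard6 56 bases with 4930503L19Rik (1.98 and 2.21 TPM), both on the opposite strand. The library kit was directional per the labels, but the sources do not tell if strand entered the counts, so the levels of Stard5 and Stard6 are uncertain to that extent. No annotated gene overlaps Star, Stard3, Dbi, Vdac1 or Atad3a.

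Genes known to control STAR were all expressed. All 10 on that list reached 1 TPM in both animals, with a median of 123 and 124 TPM. Of these 10, 0 were called different, where 1.17% of all genes judged were. The highest were Ywhae, a 14-3-3 protein, at 262 and 251 TPM, Nr5a1, the nuclear receptor that drives Star transcription, at 258 and 250 TPM, and Lonp1, the mitochondrial protease that degrades STAR, at 243 and 257 TPM. With counts on principal transcripts Ywhae had 171 and 160 TPM, below Nr5a1 and Lonp1. Prkar1a, the regulatory subunit of protein kinase A bound by ACBD3, had 148 and 148 TPM, and Akap1, which anchors the kinase at mitochondria, 39.5 and 34.0 TPM. Their median log2 ratio was -0.12 beside -0.01 over all genes judged.

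Of 13 genes of sterol uptake, storage and transfer between membranes, 12 reached 1 TPM in both animals. Scarb1, the receptor for high-density lipoprotein, had 860 and 826 TPM, Soat1, which esterifies cholesterol for storage, 523 and 618 TPM, and Gramd1b, which moves sterol from the plasma membrane to the endoplasmic reticulum, 295 and 319 TPM. With counts on principal transcripts Soat1 had 153 and 173 TPM, below Gramd1b at 199 and 210 TPM. Npc1, the lysosomal cholesterol exporter, had 51.6 and 58.7 TPM, above Stard3 and Stard3nl, which work at the same organelle. Gramd1c stayed under 1 TPM. Of the 12 genes judged, 0 were called different, where 1.17% of all genes judged were.

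**Figure D5:**
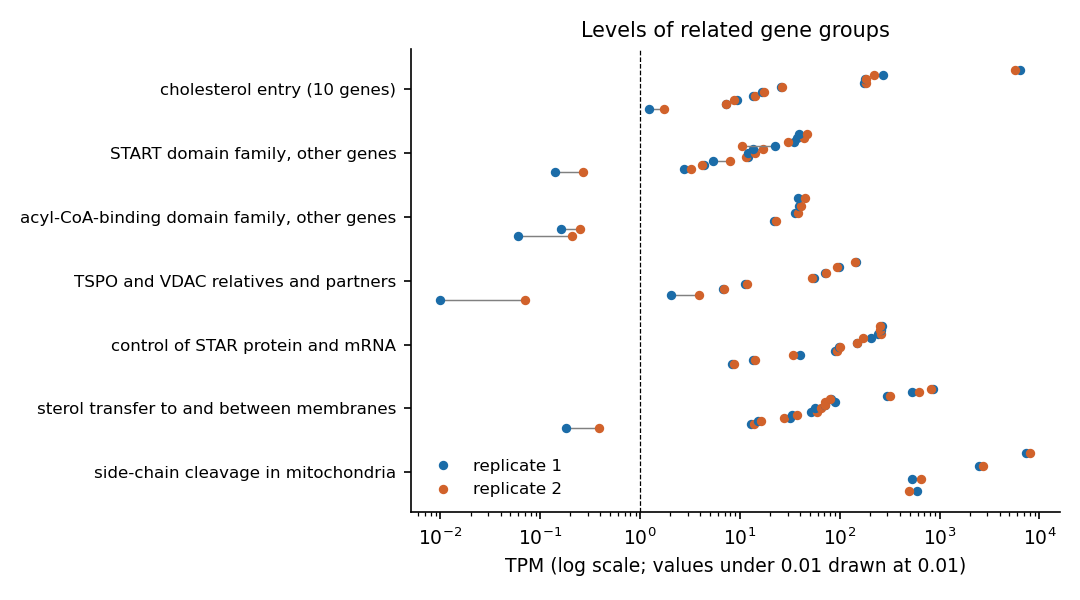
TPM on a log scale for the 10 genes and 6 lists of related genes, 1 row of points per gene, with blue for replicate 1, orange for replicate 2, and a dashed line at 1 TPM. Star, Hsd3b1 and Cyp11a1 lie at 2459 TPM or more, and the other START and acyl-CoA-binding genes stay under 50 TPM.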

How the data were processed

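Total RNA-seq of 2 adrenal libraries was used as deposited. Per the file headers and the notes beside them, gene and transcript tables came from transcriptome alignments, and a second transcript table from a transcript index (mm10, GENCODE M21). Software, versions and the handling of Cast alleles: not given in the sources used here. The deposited expected counts are unscaled. TPM values were deposited per 1e6 over all features of a library, and FPKM values were deposited per effective length, which is the length minus 100 bases. The percent of a gene held by a transcript is also a deposited column, and shares here were recomputed from deposited TPM. Names and coordinates came from GENCODE M21, which matched all 55536 genes. The 26345 tRNA, spike-in and control rows were left out of the counts of genes. They stay in the depth totals, and so in CPM.

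Expected counts were rounded for edgeR 4.0.16 in R 4.3.3, which gave TMM factors and the biological coefficient of variation. DESeq2 1.42.0 gave the alternative size factors. Other steps ran in Python 3.11.15 (pandas 2.3.3, numpy 2.4.6, scipy 1.17.1), with figures by matplotlib 3.10.9. The ratio step was tested on simulated counts. Sequences came from the GENCODE M21 transcripts, with exon positions from its annotation. A protein comparison that had been planned was not made, since no protein sequences were used here. Expected counts within 0.005 of a whole number were taken as whole.

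The text names the 10 members, their transcripts at 10% or more of TPM, the 3 highest genes of each list and any gene called different; further genes are named as background. The members and lists were chosen with earlier results of these data known. Alternatives were other scalings, pseudocounts, count and TPM limits, FPKM, the index-based table, TPM rescaled over nuclear protein-coding genes, each library left out, and counts placed on the principal transcript of the annotation (added after seeing the data).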

Additional observations from a re-analysis of the deposited data

How the results depend on the processing

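The median level of the 10 genes was 21.4 TPM. It was 60.2 TPM rescaled over nuclear protein-coding genes, 20.6 FPKM, 19.0 TPM in the index-based table, 17.7 TPM with counts on the principal transcript, and 21.0 to 21.8 TPM with 1 library left out. The median share of the leading transcript was 70.9%, 56.9% for the same transcripts in the index-based table, and 70.4% to 71.4% with 1 library left out. Member calls stayed at 0 under the 8 alternatives of scaling, pseudocount, table, count minimum and interval rule. Over all genes 148 were called (65 higher, 83 lower in replicate 2). A count minimum of 10 gave 535 (382 higher, 153 lower), total counts 147 (90 higher, 57 lower) and the deposited TPM 189 (121 higher, 68 lower). The members' biological coefficient of variation had a median of 0.125 beside 0.142 over 16966 genes, and 0.123 without the filter on low counts. These medians rest on 2 libraries and were not matched for depth. List counts at 0.5 and 5 TPM stayed within 1.5 times those at 1 TPM. Depth limits Stard6, at 53 and 59 expected counts, most. No paired comparison of groups was possible because there is 1 group.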
